A study of Mus musculus with 8 samples.

Results

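The genes described here are the 10 cytochrome P450 genes Cyp2a4, Cyp2a5, Cyp2a12, Cyp2a22, Cyp2b9, Cyp2b10, Cyp2b13, Cyp2f2, Cyp2g1 and Cyp2s1, which lie together on mouse chromosome 7. They were matched by gene symbol among the 52636 genes listed in each library, and all 10 were found. The cluster was singled out because Cyp2a4 and Cyp2b10 were higher, and Cyp2g1 lower, in livers with a conditional CTCF deletion, so the change of the members between the genotypes is a description here and carries no test. The libraries were made from liver of C57BL/6 mice aged 8 weeks, with 4 libraries per genotype. All mice carried floxed Ctcf alleles (CTCF fl/fl). The control group, called WT, lacked the Cre transgene (Albcre-), and the deleted group, called cKO, carried it (Albcre+). Albcre drives Cre recombinase from albumin regulatory sequence, which is active in hepatocytes. Without a group that had Cre but no floxed allele, what Cre alone does cannot be told apart from the deletion. The labels give neither sex nor whether the libraries came from separate mice, so the p-values below measure the spread between these samples.

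Enzymes of the cytochrome P450 family 2 are haem proteins of the endoplasmic reticulum that take electrons from P450 oxidoreductase and oxidise steroids, drugs and plant compounds. Families such as Cyp2a, Cyp2b, Cyp2f, Cyp2g and Cyp2s arose by tandem duplication, and their near-identical copies differ in substrate, sex bias and tissue. In mouse liver, Cyp2b10 is the standard readout of the nuclear receptor CAR (Nr1i3), Cyp2a5 hydroxylates coumarin and nicotine, and Cyp2a4, Cyp2b9 and Cyp2b13 are known to be higher in females under the control of the growth hormone pattern. CTCF is a DNA-binding protein that anchors chromatin loops and can separate enhancers from promoters.

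The 8 libraries held between 43.9 and 57.3 M expected read counts (M, mega), with a mean of 46.1 ± 2.93 M in WT and 52.4 ± 3.29 M in cKO (SD, n = 4 each). Ctcf itself had 16.0 to 16.9 counts-per-million (CPM) in WT and 10.9 to 13.1 CPM in cKO, a log2 change of -0.44 (SE 0.08, edgeR adjusted p = 0.00177). On the log2(TPM + 1) scale limma gave -0.15 for Ctcf and did not call it (adjusted p = 0.162). Of 15562 genes tested with edgeR's quasi-likelihood test, 4689 passed an adjusted p of 0.05, 2367 higher and 2322 lower in cKO. With library totals alone as the scaling the split was 3604 higher and 1318 lower, and with limma on log2(TPM + 1) it was 3612 higher and 814 lower. Hepatocyte markers dominated every library, with summed levels of 117900 to 146000 CPM in WT and 124900 to 139900 CPM in cKO. Xist stayed at or below 0.273 CPM in every library while the Y-linked Ddx3y lay between 11.4 and 17.5 CPM.

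Of the 10 members, 9 had enough reads to be tested, and Cyp2b13 did not. Cyp2a4, Cyp2b10 and Cyp2s1 were called higher in cKO, Cyp2g1 was called lower, and Cyp2a5, Cyp2a12, Cyp2a22, Cyp2b9 and Cyp2f2 were not called. Across all genes tested, 30.1% were called, 15.2% higher and 14.9% lower. In CPM, the libraries of the 2 genotypes did not overlap for Cyp2a4, Cyp2b9, Cyp2b10 and Cyp2b13, all higher in cKO, and for Cyp2g1, which was lower. The same separation was seen for 30.6% of all genes tested. Because this contrast chose the members, nothing is read from these shares.

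**Figure D1:**
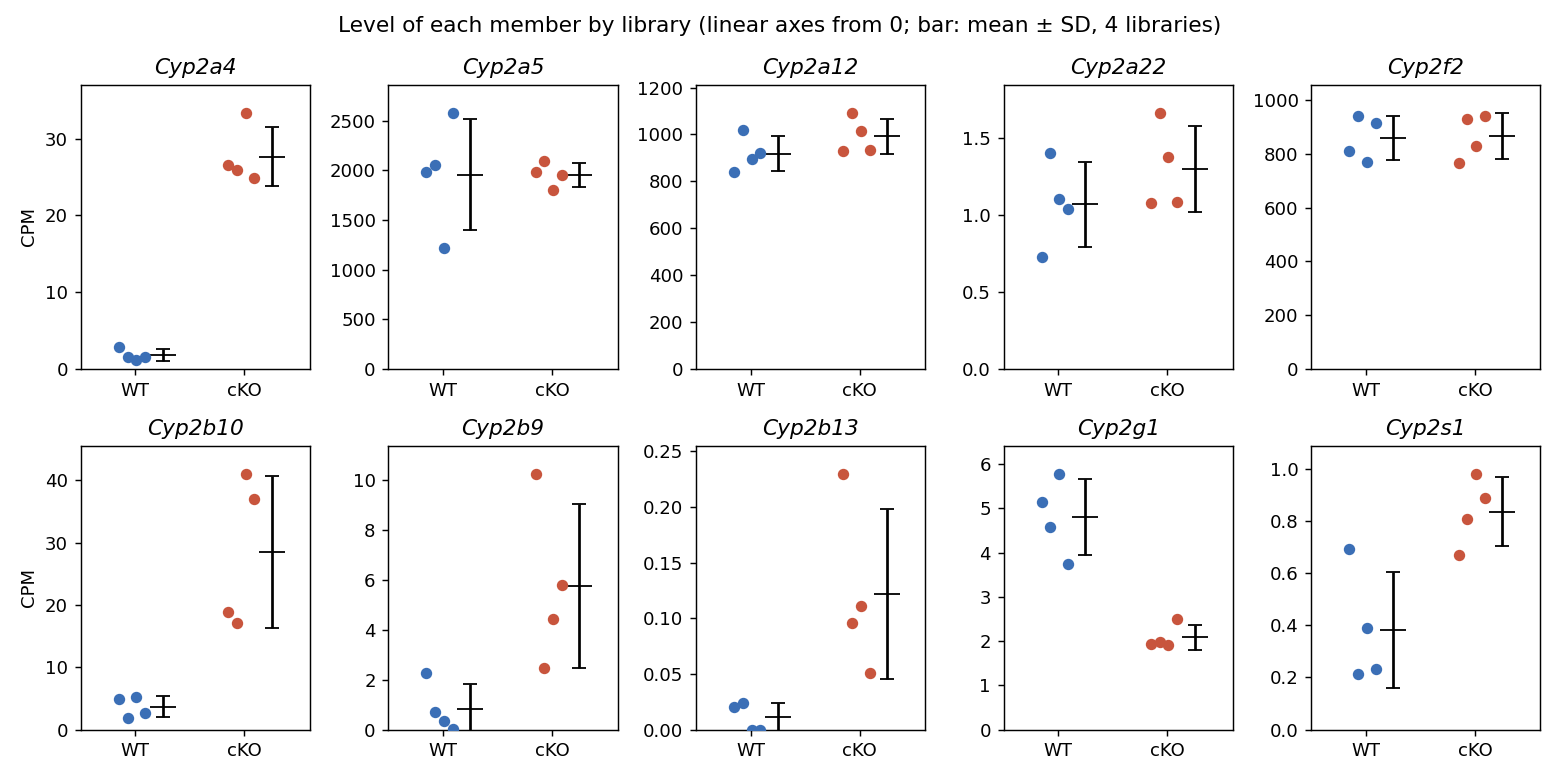
Counts-per-million (CPM, linear axis from 0) of each of the 10 genes in the 4 WT (blue) and 4 cKO (red) libraries, with the mean and SD of each group in black (SD bars that would pass below 0 end at the axis). The WT and cKO points are apart for Cyp2a4, Cyp2b10, Cyp2b9, Cyp2b13 and Cyp2g1 and overlap for the other 5 genes.

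Per unit of transcript length, 3 of the 10 genes carried nearly all of the cluster's RNA. In WT, Cyp2a5 had a mean of 1136 transcripts-per-million (TPM), Cyp2a12 628 TPM and Cyp2f2 535 TPM, and neighbours in this order overlapped between libraries. The next gene, Cyp2g1, followed at 4.81 TPM, apart from Cyp2f2 and from Cyp2b10 at 2.21 TPM in every library. The WT levels of Cyp2b10, Cyp2a4 (1.20 TPM), Cyp2a22 (0.68 TPM), Cyp2b9 (0.51 TPM) and Cyp2s1 (0.19 TPM) each overlapped with the next in order, and Cyp2b13 was lowest at 0.005 TPM. In cKO the first 3 kept their places, at 1289 TPM for Cyp2a5, 770 TPM for Cyp2a12 and 612 TPM for Cyp2f2, here without overlap. Cyp2a4 at 21.1 TPM and Cyp2b10 at 20.1 TPM came next. They overlapped with each other, and both were above Cyp2g1 at 2.44 TPM in every library. Together the 10 genes accounted for 0.361 ± 0.062% of the reads counted in WT libraries and for 0.402 ± 0.016% in cKO libraries (SD, n = 4 each), and their summed CPM overlapped between the genotypes.

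Cyp2a4 is the steroid 15-alpha-hydroxylase of the cluster and, in mouse liver, a female-predominant gene. It had 2.88, 1.61, 1.14 and 1.5 CPM in the 4 WT libraries and 26.6, 25.9, 33.3 and 24.8 CPM in the 4 cKO libraries. The lowest cKO library lay far above the highest WT library, and the cKO libraries were close to one another. The fitted log2 change was 3.94 (SE 0.25), a 15.5-fold ratio of the mean CPM.

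Cyp2a5, the coumarin hydroxylase and the nearest copy of Cyp2a4, had 1978, 2049, 1219 and 2573 CPM in WT and 1982, 2089, 1797 and 1952 CPM in cKO. The WT libraries spanned the cKO libraries on both sides, with WT replicate 3 lowest and WT replicate 4 highest. The log2 change was 0.00 (SE 0.21). Leaving out WT replicate 3 moved it to -0.17, and leaving out WT replicate 4 moved it to 0.16. The coefficient of variation over libraries was 28.5% in WT and 6.16% in cKO.

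These 2 genes are so alike that a read often fits both. Their coding sequences, each of 1485 bases in the GENCODE M1 transcripts, were 98.5% identical, with 23 differing bases that fell in 23 codons, and the longest run without a difference was 216 bases. The stretch from codon 200 to codon 224 is shown because it holds codon 209, the position long known to set whether the enzyme accepts coumarin or steroids. The capitals mark the 5 bases that differ between the genes.
Cyp2a4: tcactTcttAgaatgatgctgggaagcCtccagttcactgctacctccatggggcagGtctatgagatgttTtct
Cyp2a5: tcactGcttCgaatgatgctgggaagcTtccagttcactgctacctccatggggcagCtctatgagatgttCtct
Counted from 1 at the first base of the start codon, with the base of Cyp2a4 first, the substitutions are T603G, A607C, C625T, G655C and T669C, of which C625T lies in codon 209. The deposited counts of both genes were fractional in every library, so the quantifier divided reads, but the counts do not tell with which genes. Cyp2f2, 58.8% identical to each in coding sequence, also had fractional counts in every library. Because the pair is so alike, the value of each gene alone is less certain than their sum. The sum may itself hold a share of reads that fit other genes. Their summed level was 1957 ± 558 CPM in WT and 1983 ± 117 CPM in cKO (SD, n = 4 each) and overlapped between the genotypes. Within that sum, Cyp2a4 took 0.146%, 0.0787%, 0.0935% and 0.0582% of the counts in the WT libraries and 1.32%, 1.22%, 1.82% and 1.26% in the cKO libraries. The share did not overlap between the genotypes, although the sum did.

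**Figure D2:**
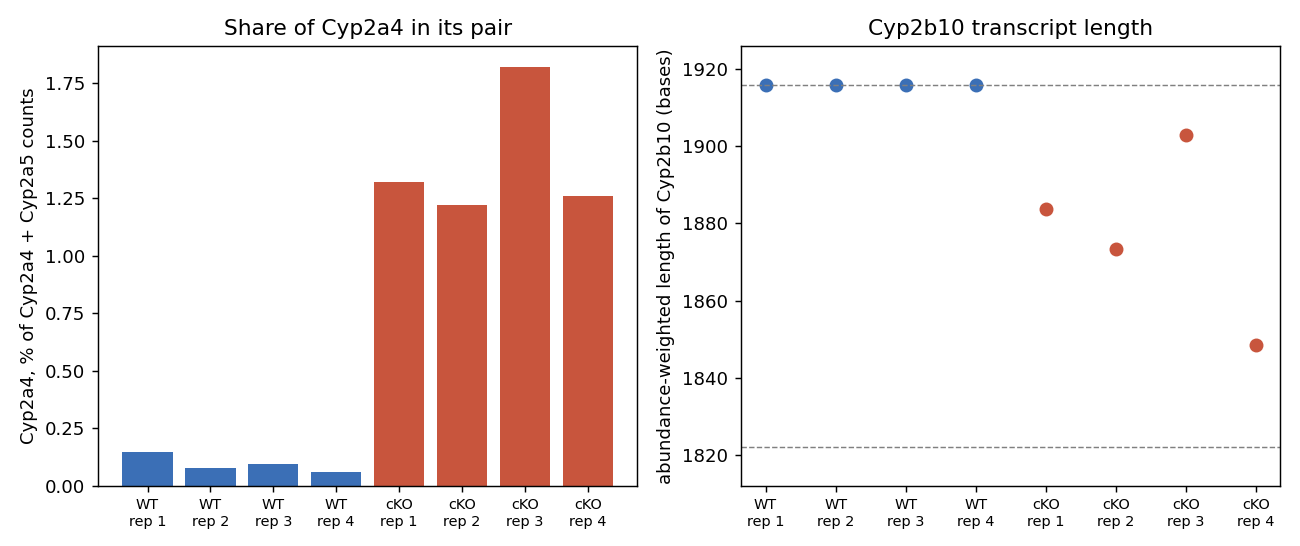
Left, counts of Cyp2a4 as a percentage of the counts of Cyp2a4 and Cyp2a5 together, 1 bar per library, from 0.0582% to 0.146% in WT (blue) and from 1.22% to 1.82% in cKO (red). Right, abundance-weighted transcript length of Cyp2b10 in bases (axis not from 0), 1 point per library, with dashed lines at 1916 and 1822 bases, the lengths of 2 reference transcripts. The 4 WT points lie on the upper line and the 4 cKO points below it.

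The sequence before the start sites of the pair was as alike as the coding sequence. In RefSeq (GRCm38.p6), the 250 bases before the start of Cyp2a4 span chr7:26306942-26307191 and those of Cyp2a5 span chr7:26835089-26835338, both on the plus strand. They are shown because the 2 genes differed so much in change between the genotypes with so little difference at the promoter. The windows are offset by 1 base, and over 249 aligned bases they differed at 4 positions, which are in capitals (98.4% identity).
Cyp2a4: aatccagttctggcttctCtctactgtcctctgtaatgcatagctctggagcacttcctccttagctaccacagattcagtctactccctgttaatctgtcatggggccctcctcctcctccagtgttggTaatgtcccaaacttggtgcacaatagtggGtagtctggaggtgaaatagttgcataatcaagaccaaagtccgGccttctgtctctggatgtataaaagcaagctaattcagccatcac
Cyp2a5: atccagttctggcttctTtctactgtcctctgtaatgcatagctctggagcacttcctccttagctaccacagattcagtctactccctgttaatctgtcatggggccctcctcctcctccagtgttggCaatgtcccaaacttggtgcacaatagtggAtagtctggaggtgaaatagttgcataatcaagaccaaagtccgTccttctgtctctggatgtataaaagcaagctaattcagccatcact

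Motifs were looked for on both strands of 300-base windows (250 bases before to 50 after the start) for the 9 members with a RefSeq window, which left out Cyp2g1. TATAAA was present in the 4 Cyp2a genes and in 13.6% of all 32851 windows. TTGCNNAA, the C/EBP consensus, was present in Cyp2a4, Cyp2a5, Cyp2b9, Cyp2b10 and Cyp2b13 and in 10.8% of all windows. AGGTCA, the nuclear receptor hexamer, was found in Cyp2a4, Cyp2a5, Cyp2b9, Cyp2b13 and Cyp2f2 and in 16.3% of all windows. GGNGGCAG, the core of the CTCF motif, matched in Cyp2a4, Cyp2f2 and Cyp2s1 and in 12.6% of all windows. Of the near-identical pair, Cyp2a4 had this match and Cyp2a5 did not. It lies on the other strand at offset 18 after the start, outside the 250 bases shown above. Whether it bears on the change of Cyp2a4 was not tested. TTATGTAA, TTCNNNGAA and CAAAGTCCA, the consensus letters for DBP-family, STAT and HNF4 factors, had no match in the 9 windows and were present in 0.938%, 8.3% and 0.475% of all windows. These are matches of letters and no measure of binding.

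Cyp2a12, a hepatic steroid hydroxylase, had 840, 1017, 895 and 921 CPM in WT and 930, 1090, 1014 and 936 CPM in cKO, and the genotypes overlapped. Its log2 change was 0.11 (SE 0.085), and it was not called in CPM-based fits. In TPM its cKO libraries all lay above the WT libraries, at 708 to 823 TPM against 575 to 704 TPM, and limma called it on both TPM scales run. On the log2(TPM + 0.1) scale the median of all genes was also shifted, by 0.14.

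Cyp2a22, the copy next to Cyp2a12 on the other strand, was expressed at a far lower level, with 0.727 to 1.40 CPM in WT and 1.08 to 1.66 CPM in cKO. The log2 change was 0.30 (SE 0.23). The coding sequences of Cyp2a12 and Cyp2a22 were 97.0% identical and their counts were fractional in all libraries, so the level of Cyp2a22 is uncertain.

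Cyp2f2, known for the epoxidation of naphthalene and as a marker of periportal hepatocytes, had 810, 942, 772 and 915 CPM in WT and 766, 930, 830 and 943 CPM in cKO. The ranges were nearly the same, and the log2 change was 0.01 (SE 0.095). Its biological coefficient of variation, the spread between libraries that edgeR fits beyond counting error, was 0.118, beside a median of 0.128 over all genes tested. Cyp2a12 at 0.11 was also below that median.

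Cyp2b10 is the phenobarbital-inducible member and the usual readout of CAR. It had 4.94, 1.86, 5.25 and 2.69 CPM in WT and 18.8, 17.2, 41.0 and 37.0 CPM in cKO. Every cKO library lay above every WT library, and the cKO libraries fell into a lower pair, replicates 1 and 2, and a higher pair, replicates 3 and 4. The log2 change was 2.95 (SE 0.47), a 7.74-fold ratio of the mean CPM. Its biological coefficient of variation was 0.346, larger than that of 96.6% of the genes tested.

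The transcript mix of Cyp2b10 also differed between the genotypes. RSEM gives each gene a length weighted by the abundance of its transcripts, and for Cyp2b10, with 3 transcripts listed, this length was 1916 bases in all 4 WT libraries. In cKO it was 1883.74, 1873.27, 1902.96 and 1848.44 bases. All 4 values were thus below the WT value, and replicate 4 had the shortest. GENCODE M1 holds 2 coding transcripts of Cyp2b10, of 1916 and 1822 bases, and the shorter one carries 27 extra coding bases in frame, from base 1294 of its coding sequence. The junction is shown because it is what distinguishes the 2 proteins, with the extra bases in capitals between 21 shared bases on each side.
Cyp2b10 transcript of 1822 bases: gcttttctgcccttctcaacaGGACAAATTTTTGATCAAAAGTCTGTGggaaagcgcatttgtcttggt
Cyp2b10 transcript of 1916 bases: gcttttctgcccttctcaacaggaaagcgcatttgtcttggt
The length of the third transcript was not used here, so the deposited lengths do not tell which shorter transcript was counted in cKO. WT libraries held 79 to 242 counts of the gene against 895 to 2220 in cKO, which limits how well a minor transcript could be seen in WT.

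Cyp2b9, a female-predominant Cyp2b gene, had the largest biological coefficient of variation of the 9 tested members. It had 2.26, 0.708, 0.344 and 0.023 CPM in WT, the last from 1 read, and 10.3, 2.49, 4.45 and 5.83 CPM in cKO. No library of one genotype reached into the range of the other, though WT replicate 1 came close to cKO replicate 2. The log2 change was 2.75 (SE 0.89) and was not called. Without WT replicate 1 it was 4.0 and was called. DESeq2 and limma-voom also called it with all libraries. This coefficient was 0.763, larger than that of 99.6% of the genes tested.

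Cyp2b13, the neighbour of Cyp2b9 and also female-predominant, was counted in single reads. The WT libraries had 1, 1, 0 and 0 reads and the cKO libraries 12, 5, 6 and 3 reads. Pooled over libraries, 2 reads in WT and 26 in cKO gave a ratio of 10.6 relative to depth, with an exact 95% interval of 2.66 to 92.5 that covers counting error only. A library without a read allows a level of up to 3 counts, between 0.0524 and 0.0683 CPM over the libraries. The coding sequences of Cyp2b9 and Cyp2b13 were 92.5% identical, and those of Cyp2b10 were 86.2% identical to Cyp2b9 and 87.0% to Cyp2b13. The counts of all 3 genes were whole in every library, within 0.005. In the 250 bases before their RefSeq promoter table starts, Cyp2b9 and Cyp2b13 differed at 2 positions (99.2% identity), while Cyp2b9 and Cyp2b10 were 70.5% identical. The 3 genes together went from 4.53 ± 2.27 to 34.4 ± 12.1 CPM (SD, n = 4 each) without overlap, a log2 ratio of 2.92 that rests mainly on Cyp2b10 and was not tested.

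Cyp2g1, best known as a P450 of the olfactory mucosa, was the member that fell. It had 5.14, 4.58, 5.77 and 3.74 CPM in WT and 1.93, 1.98, 1.92 and 2.5 CPM in cKO. The groups did not overlap, 3 of the 4 cKO libraries lay almost on one value, and replicate 4 stood above them. The log2 change was -1.21 (SE 0.16), and the mean cKO level was 43.3% of the WT mean.

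Cyp2s1, an inducible P450 of epithelia outside the liver, was at the lower edge of detection with 9 to 53 counts a library. It had 0.694, 0.212, 0.390 and 0.234 CPM in WT and 0.670, 0.805, 0.979 and 0.886 CPM in cKO. WT replicate 1 lay above the lowest cKO library, so the groups overlapped, although the log2 change of 1.10 (SE 0.34) was called. The call was lost when WT replicate 2, 3 or 4 or cKO replicate 3 or 4 was left out. With an offset for the effective length of each gene in each library, which for Cyp2s1 varied between libraries, the log2 change was 0.81 and was not called. Limma on log2(TPM + 1), a scale that shrinks changes of low genes, gave 0.21 and called it.

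Along chromosome 7 the members span 1331 kb of GRCm38.p6, from Cyp2s1 (chr7:25802469-25816525) to Cyp2f2 (chr7:27119955-27133660). Cyp2b10 (chr7:25897658-25926624), Cyp2b13 (chr7:26061388-26096197), Cyp2b9 (chr7:26173350-26210661) and Cyp2a4 (chr7:26307192-26315088) follow Cyp2s1. After a gap of 494 kb come Cyp2g1 (chr7:26808927-26821197), Cyp2a5 (chr7:26835339-26843264), Cyp2a22 (chr7:26931631-26939413), Cyp2a12 (chr7:27029090-27036818) and Cyp2f2. Read in this order, the 5 genes before the gap all had higher mean levels in cKO, though Cyp2s1 overlapped between the genotypes and Cyp2b13 had few reads. After the gap Cyp2g1 was lower, and Cyp2a5, only 14.1 kb beyond it, had a log2 change of 0.00. Cyp2a22, Cyp2a12 and Cyp2f2 also had higher means in cKO, with log2 changes of 0.30, 0.11 and 0.01 and overlapping CPM. The members were chosen partly by these directions, so their arrangement is a description.

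Other P450 genes of the cluster were barely counted. Cyp2b19 had 0 reads in WT and 1 in cKO, Cyp2b23 had 0 in all 8 libraries, and Cyp2t4 had 10 reads over the WT and 13 over the cKO libraries. For the pseudogene Cyp2a21-ps the log2 change was -0.43 and did not pass (edgeR adjusted p = 0.494). Gm42375, a long noncoding RNA whose annotated span (chr7:26304421-26307212) ends just inside the start of Cyp2a4, averaged 0.259 ± 0.130 CPM over WT and 0.516 ± 0.253 CPM over cKO libraries (SD, n = 4 each). Its log2 change of 0.98 did not pass (edgeR adjusted p = 0.131), and reads over the shared bases cannot be assigned without a stated strand setting.

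Genes of other families flank the cluster. Within 500 kb of the outermost members RefSeq lists 85 other genes, of which 69 were found in the files and 33 could be tested. Of these, 13 were lower and 2 higher in cKO, 45.5% called beside 30.1% of all genes tested, with a median log2 change of -0.22. The direction depended on the scaling, since 7 were higher and 7 lower with library totals alone, and 6 higher and 3 lower with limma on log2(TPM + 1). Before Cyp2s1, 8 of 13 were lower. After Cyp2f2, 5 of 17 were lower and 2 higher. Between the members, edgeR called 0 of the 3 tested, with 1 at an unadjusted p under 0.05. The count of 15 depended on single libraries and fell to 9 without WT replicate 3 or cKO replicate 2 and to 8 without cKO replicate 3.

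The called neighbours with the smallest p were all lower. Exosc5, a subunit of the RNA exosome, went from 50.2 ± 1.72 to 37.2 ± 3.71 CPM (log2 change -0.43, edgeR adjusted p = 0.00194). Rab4b, a GTPase of endosome recycling, went from 23.1 ± 2.04 to 17.4 ± 1.09 CPM (log2 change -0.42, edgeR adjusted p = 0.00302). BC024978, Snrpa, B3gnt8, Ceacam1, B9d2 and 4732471J01Rik had log2 changes of -0.41, -0.42, -0.60, -0.32, -0.46 and -0.91. The higher pair, named after their values were seen, were Numbl (0.54) and the pseudogene Pgam1-ps2 (0.60). With 1 library left out, 0 to 3 neighbours were higher. Limma on both TPM scales did not call Exosc5, BC024978, Snrpa, B3gnt8, Ceacam1 or 4732471J01Rik, whereas Rab4b and B9d2 kept their calls under all 19 alternatives. Ceacam1 was also not called with library totals alone. The call of 4732471J01Rik was also lost with the effective length offset and without WT replicate 1 or cKO replicate 2 or 3. No tested neighbour within 500 kb had a log2 change above 0.98, that of Gm42375, whereas Cyp2a4, Cyp2b9 and Cyp2b10 were at 2.75 or more. The cluster was chosen because Cyp2a4 and Cyp2b10 were higher, and the neighbours were not, so this difference is a description.

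**Figure D3:**
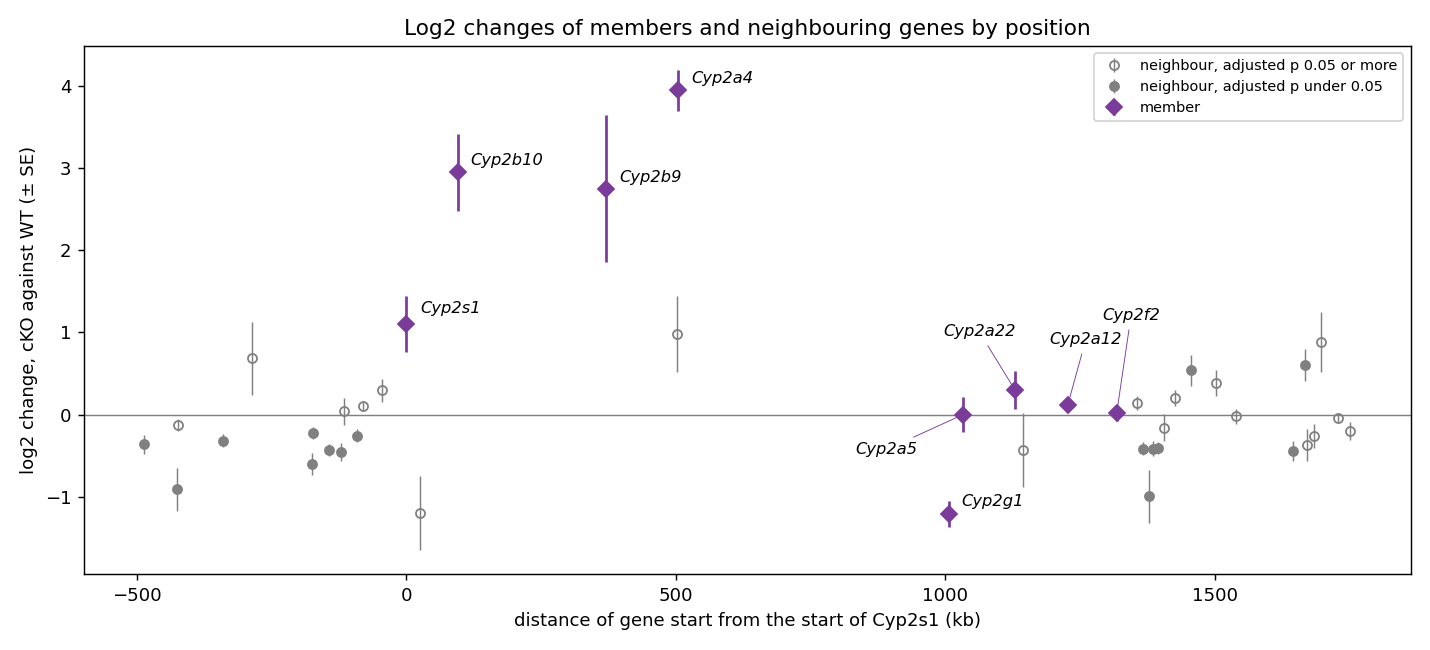
Log2 change in cKO against WT (error bars, SE) of the 9 tested members (purple diamonds) and the 33 tested neighbours (grey circles, filled where the edgeR adjusted p was under 0.05), by distance of the gene start from the start of Cyp2s1 in kb. Cyp2b10, Cyp2b9 and Cyp2a4 stand above all neighbours, and the members beyond the 494 kb gap lie near 0 except Cyp2g1. The cluster was chosen partly because Cyp2b10 and Cyp2a4 were higher.

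P450 genes of family 2 outside the cluster differed in both directions. Of 28 tested, 4 were higher and 9 lower, with a median log2 change of -0.17, while limma called 5 higher and 6 lower on log2(TPM + 1) and 6 each way on log2(TPM + 0.1). Cyp2d10 rose from 1298 ± 66.4 to 1810 ± 117 CPM (log2 change 0.48, edgeR adjusted p = 0.00129), and Cyp2c39, a female-biased gene, rose from 2.84 ± 0.647 to 5.88 ± 0.820 CPM (1.05, edgeR adjusted p = 0.00133). Cyp2c37 fell from 275 ± 34.5 to 143 ± 28.6 CPM (-0.94, edgeR adjusted p = 8.29e-04), and Cyp2c67 and Cyp2u1 had log2 changes of -0.75 and -1.05.

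The receptor known to drive Cyp2b10 was lower. Nr1i3, which encodes CAR, fell from 1279 ± 294 to 673 ± 72.8 CPM without overlap (log2 change -0.93, edgeR adjusted p = 0.00249). Among 15 receptors and partners of xenobiotic induction, Ppp1r16a (-0.23) also passed as lower and Nr3c1, the glucocorticoid receptor, as higher (0.25), and neither call was stable. Ppp1r16a lost its call in 15 of 19 alternatives, DESeq2 and limma-voom among them, and Nr3c1 in 6 of 19, when WT replicate 1, 2 or 3 or cKO replicate 2, 3 or 4 was left out. Over the alternatives, 0 to 4 genes of this list were higher and 1 to 3 lower. Of 23 CAR target genes outside the cluster, 6 were higher and 3 lower, with a median log2 change of 0.09 beside -0.01 for all genes tested. The microtubule gene Tuba8 (1.02), Cyp2c55 (0.96) and the glutathione transferase Gstm3 (1.69) were higher, as Cyp2b10 was. The P450 genes Cyp2c37, Cyp2c29 (-0.37) and Cyp2c54 (-0.66), which are also CAR targets, were lower.

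Redox partners and haem serve all P450 enzymes, Cyp2a4 and Cyp2b10 among them. Of 15 genes for redox partners and haem synthesis, the haem enzyme Cpox was higher (log2 change 0.34) and 5 were lower, led by the haem enzymes Ppox (-0.64) and Alad (-0.42) and the cytochrome b5 reductase Cyb5r3 (-0.32). With limma on log2(TPM + 1) none of the 15 was called lower. Nrf2 is the factor of the oxidative stress response and has been linked to Cyp2a5. Of 14 of its targets, 7 were higher and 1 lower, with Gsta1 at 3.01, Srxn1 at 1.01, Gsr at 0.44 and Gclc at -0.40 on the log2 scale. Of 20 transcription factors known at P450 promoters, edgeR called 0 higher. The count was again 0 at an unadjusted p under 0.05 and by DESeq2 or limma-voom, but it ranged from 0 to 2 over all alternatives. EdgeR called 9 lower, including Dbp (-0.41), Tef (-0.32) and Ctcf, and limma on log2(TPM + 1) called 2 of the 20 lower. Ctcf is the gene deleted in cKO, so its place among the 9 comes from the design.

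Cyp2a4, Cyp2b9 and Cyp2b13 are known for female bias, and genes of the same bias elsewhere in the genome were counted beside them. Of 23 female-biased genes tested outside the cluster, 10 were higher in cKO and 0 lower, with a median log2 change of 0.64. Among all genes tested, 15.2% were called higher and 14.9% lower. The gene lists were chosen with earlier results of these data known, so the counts of sex-biased genes are a description. Lower calls numbered 0 by edgeR, by DESeq2, by limma-voom and at an unadjusted edgeR p under 0.05. The peroxisomal oxidase Hao2 went from 0.029 ± 0.035 to 0.554 ± 0.139 CPM (log2 change 4.18, edgeR adjusted p = 4.69e-04), and Rtn4 from 28.3 ± 3.07 to 63.6 ± 8.72 CPM (1.17, edgeR adjusted p = 3.51e-05). Of 25 male-biased genes, 0 were called higher by edgeR, DESeq2 or limma-voom, or at an unadjusted edgeR p under 0.05. EdgeR called 14 lower, with a median of -0.81. Over all alternatives, 0 to 1 were higher and 11 to 19 lower. Hsd3b5, a steroid dehydrogenase of male liver, fell from 14.9 ± 4.11 to 0.310 ± 0.271 CPM (-5.58, edgeR adjusted p = 2.54e-04), and the pheromone carrier Mup3 from 10340 ± 1209 to 3878 ± 597 CPM (-1.42, edgeR adjusted p = 2.53e-05). Among 16 genes of the growth hormone axis and its regulators, Rtn4 and Nfib (0.29) were higher and Igfals (-0.83), Igf1 (-0.36) and Tox (-0.90) were lower. The genotypes overlapped for Tox, and its call was lost in 6 of 19 alternatives, including those without WT replicate 1 or 2 or cKO replicate 4.

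Liver zones were compared because Cyp2a5 is pericentral and Cyp2f2 periportal, and neither was called. Of 24 pericentral genes, 4 were higher and 4 lower, with a median log2 change of 0.04, and of 22 periportal genes, 6 were higher and 3 lower, with a median of 0.11. Aldh3a2 (0.90), Slc1a4 (1.14) and Gulo (0.41) were the called pericentral genes with the smallest p among those higher, and Nr1i3, Cyp2c29 and Rgn (-0.43) among those lower. Of the periportal genes, Hsd17b13 (0.69), Pigr (0.45) and Cdh1 (0.59) were higher and Ctsc (-0.46), Hal (-0.51) and Apof (-0.32) lower, the last not without WT replicate 3 or cKO replicate 2 or 3.

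**Figure D4:**
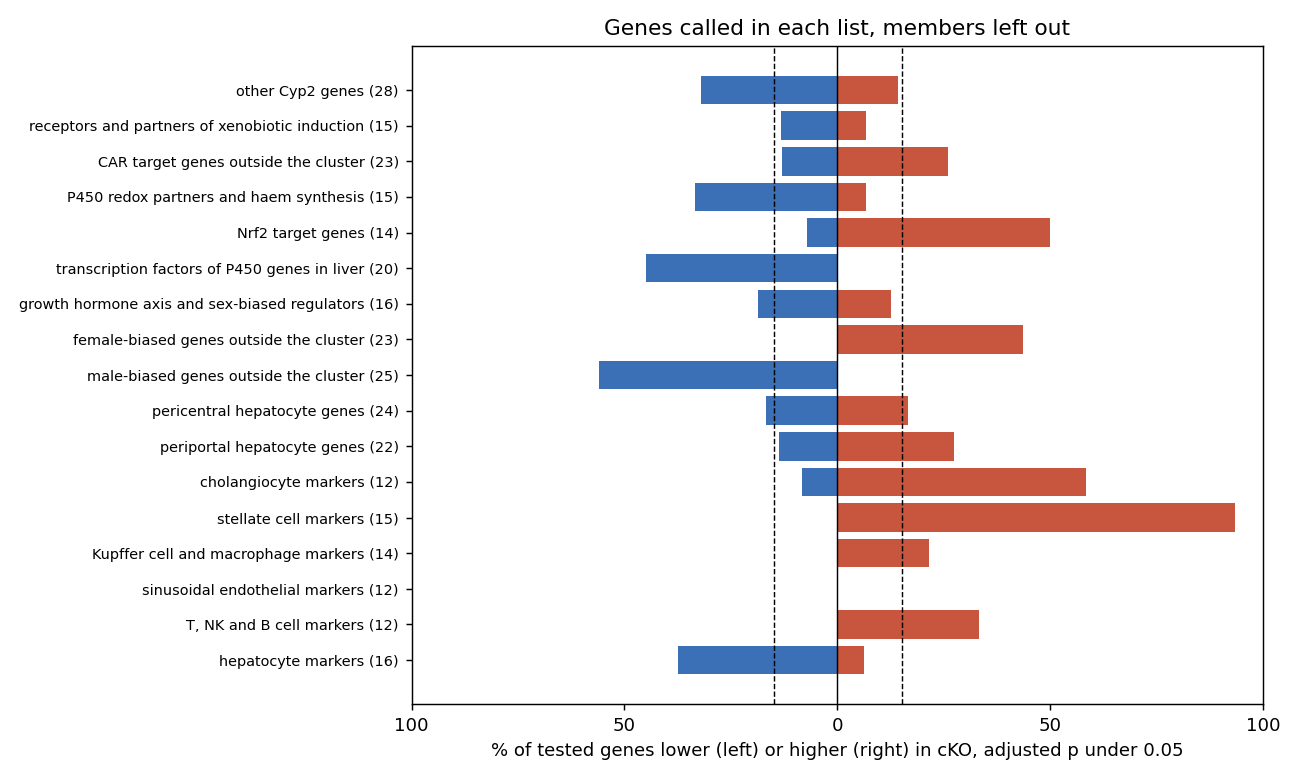
Percentage of the tested genes of each list that passed an edgeR adjusted p of 0.05, higher in cKO (red, to the right) or lower (blue, to the left), the 10 P450 genes of the cluster left out and the number tested in brackets. Dashed lines mark 15.2% higher and 14.9% lower, the shares of all genes tested, and the female-biased and stellate cell bars reach right only while the male-biased bar reaches left only.

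Markers of other liver cells moved with genotype. Of 15 stellate cell markers, 14 were higher in cKO, and their summed level was 281 to 309 CPM in WT and 504 to 658 CPM in cKO. Dcn rose from 65.3 ± 3.71 to 194 ± 27.1 CPM (log2 change 1.57, edgeR adjusted p = 4.27e-06), and Lrat and Pdgfra had log2 changes of 1.45 and 1.63. Of 12 cholangiocyte markers tested, 7 were higher, including Tspan8 (2.65), Cldn4 (2.90) and Cldn7 (1.85), and Spp1 was lower (-0.68), with sums of 84.3 to 98.4 CPM in WT and 83.3 to 88.3 CPM in cKO.

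Of 14 Kupffer cell and macrophage markers, 3 were higher (Gpnmb, 1.90, Marco, 0.61, and Trem2, 0.76), and 1 to 4 over the alternatives. The other 11, Clec4f, Timd4, Vsig4 and Cd5l among them, were not called and had log2 changes from -0.27 (Timd4) to 0.36 (Adgre1). Trem2 lost its call in 7 of 18, without WT replicate 1, 2 or 3 or cKO replicate 1, 2 or 4 and with a replicate block. Kupffer cell and macrophage sums were 384 to 582 CPM in WT and 315 to 519 CPM in cKO. Of 12 lymphocyte markers, 4 were higher, led by Cd8a (2.64), Nkg7 (1.12) and Cd3d (1.00), and sums were 11.3 to 19.8 CPM in WT and 14.7 to 21.4 CPM in cKO. Of 12 endothelial markers, edgeR called 0, while 2 were higher at an unadjusted p under 0.05 and also with DESeq2 and limma-voom, and sums were 208 to 394 CPM in WT and 286 to 434 CPM in cKO. No defining marker of these types was at 0 in all libraries. Of 16 hepatocyte markers, 6 were lower, led by Ttr (-0.68), Fga (-0.57) and Fgb (-0.46), and Cps1 was higher (0.58, not called without WT replicate 3), while limma on log2(TPM + 1) called 2 lower and 2 higher. In bulk liver, fewer cells of a type and less RNA per cell cannot be told apart, and the part of these cell types in the values of the members was not tested.

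The genes whose profile over the 8 libraries came nearest to each of the 3 members that define the cluster's pattern were sought in 11440 genes. These had a mean level of at least 1 CPM, and the members and symbols of the Gm and Rik kind were left out. The measure was the root mean square difference of log2 CPM, each gene set relative to its WT mean. For Cyp2a4 they were Evpl, which encodes envoplakin (difference 0.37), the surface protein gene Ly6d (0.60) and the stress gene Nupr1 (0.64), with log2 changes of 3.69, 3.35 and 3.33. For Cyp2b10 they were Lynx1 (0.47), Lysmd2 (0.50) and the glucuronosyltransferase Ugt1a5 (0.50), with log2 changes of 2.74, 2.60 and 2.54. For Cyp2g1 they were Accs (0.10), AC157650.3 (0.15) and the laminin gene Lamc3 (0.15), with log2 changes of -1.23, -1.28 and -1.24. Accs went from 4.29 ± 0.818 to 1.83 ± 0.179 CPM, and its difference from Cyp2g1 was the smallest of those listed. The genes were picked by this difference, so their similar log2 changes follow from the choice. Cyp2g1 had the smallest change and biological coefficient of variation of the 3 members (0.158, 0.205 for Cyp2a4 and 0.346 for Cyp2b10). The differences therefore cannot be compared between members.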

How the data were processed

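Liver RNA was sequenced in 8 libraries, 4 WT and 4 cKO. Per the labels' protocols, libraries were made with an Illumina TruSeq kit from total RNA. Per the submitters' processing notes, the authors used STAR 2.5.1 and RSEM on mm10. The annotation, strandedness and RSEM version were not given in the sources used here. Per gene, the authors deposited expected counts, which RSEM divides among alike genes, and TPM, which are scaled to transcript length. Per the file headers, each gene also has an abundance-weighted transcript length.

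Expected counts were rounded and tested with edgeR 4.0.16 in R 4.3.3 (TMM factors, filterByExpr with a minimum count of 10, robust quasi-likelihood fit, Benjamini-Hochberg adjustment over 15562 genes, threshold 0.05). CPM uses TMM-scaled totals. Alternatives used DESeq2 1.42.0 and limma 3.58.1, other scalings, filters and libraries left out. On simulated data the fit recovered most of the changed genes, and the share of false calls was above the nominal threshold. Library totals were 43.9 to 57.3 M counts, and intervals cover counting error only. Libraries of 1 genotype differed by far more than sampling noise (the chi-square was at least 26.1 times its degrees of freedom).

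Coding sequences came from GENCODE M1 transcripts, aligned with Biopython 1.88, and positions and promoters from RefSeq tables of GRCm38.p6. Coding sequences replace the protein comparison that had been planned. The members and gene lists were chosen with earlier results of these data known. Named were all members, Ctcf, other cluster genes, up to 3 called genes per list and direction by smallest p, and up to 8 called neighbours. The 3 nearest profiles of Cyp2a4, Cyp2b10 and Cyp2g1 were also named, sought without symbols of the Gm and Rik kind.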

Additional observations from a re-analysis of the deposited data

Results flagged for a closer look

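Among 26 groups of 4 libraries checked for a library that stood apart (Dixon's test at the 95% level), 1 did. Cyp2g1 in cKO replicate 4 was at 2.5 CPM, above 1.98 CPM in the next library, a gap of 0.907 of the group's range. Chance gives about 1 such group in 20. The library still lay below every WT library, and the log2 change of Cyp2g1 stayed between -1.31 and -1.11 when any 1 library was left out.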

How the results depend on the processing

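Cyp2a4, Cyp2b10 and Cyp2g1 kept their direction and call under all 19 alternatives, with log2 changes of 3.35 to 4.29, 2.66 to 3.16 and -1.31 to -0.75. The cluster was chosen by the directions of these 3 genes in the same libraries, so this describes the processing and carries no test. Cyp2b9 was called in 5 of 19 and Cyp2s1 in 12 of 18. Cyp2a5, Cyp2a22 and Cyp2f2 were called in none of 19, by any tool run, and the direction of Cyp2a5 (-0.17 to 0.23) and Cyp2f2 (-0.04 to 0.20) was not stable. Cyp2b13 could be tested only without a filter (log2 change 3.18, called). The number of members called ranged from 3 to 6, with 5 higher under both TPM scales. Over all genes 4689 were called at an adjusted p of 0.05 and 2215 at 0.01. Of the neighbouring genes, 15 were called, 9 with limma on either TPM scale, and 8 to 14 with 1 library left out. No called log2 change of a member or named gene changed sign, but the balance of the neighbours turned from 2 higher and 13 lower to 6 higher and 3 lower on both TPM scales. Same-numbered WT and cKO libraries correlated at 0.0554, 0.0436, 0.0572 and 0.0442 in their deviations from the group means, so the numbers were not taken as pairs, and 3 of the 4 matched best with their own number. A replicate block gave 4944 genes called, 4 members called and 14 neighbours. Depth limits Cyp2b13, Cyp2s1 and Cyp2a22 most, with few reads per library.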
